A study of Drosophila melanogaster with 2 samples.

Results

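The microRNA hairpins mir-9a and mir-79 of Drosophila melanogaster were followed through all their listed products in whole larvae of 48 h, grown at 25 °C. Larvae homozygous for the mutant allele cdk9-G57S were set against wild-type larvae, with 1 small-RNA library per genotype. Cdk9 is the kinase of P-TEFb, which phosphorylates RNA polymerase II during elongation, and the series title asks whether recruitment of the Microprocessor to elongating polymerase is needed for differential microRNA expression. The labels do not give the strain background, the sex or the number of larvae behind a library. The members are the rows whose identifier begins with MI0000129 (dme-mir-9a) or MI0000374 (dme-mir-79), which gave 2 products each and so 4 of the 101 listed products and 2 of the 83 hairpins. The pairing of these identifiers with names came with the definition of the set. None of the hairpin identifiers was found in the gene tables at hand (0 matched), so the names were not checked against the data.

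A microRNA hairpin is cut from its primary transcript by the Microprocessor, the Drosha and Pasha complex, and then by Dicer, which leaves a duplex of the hairpin's arms. As a rule one strand is loaded into an Argonaute protein and kept, and the other, the passenger strand, is mostly degraded. The mir-9 family is conserved between flies and vertebrates. In flies, miR-9a acts in the epithelium around sensory organ precursors, where it limits senseless, a zinc-finger gene that promotes sensory organ fate, and in the wing it limits dLMO (Beadex), a LIM-domain cofactor. The mir-79 hairpin is a relative of mir-9a. In the worm Caenorhabditis elegans, mir-79 acts in the epidermis and affects neuronal migration. In the annotation BDGP6.54, mir-9a lies on chromosome arm 3L within an exon of the long non-coding RNA gene CR45916, with no other microRNA gene within 10 kb. There, mir-79 lies on arm 2L within an intron of grp, the gene for the checkpoint kinase Chk1, and on the same strand. It has mir-9c and mir-306 upstream of it and mir-9b downstream within 10 kb. No coordinates are given, because the submitters' processing notes name another build, dm3. The deposited table does not pair identifiers with the names of these 3 neighbours, so they were not analysed here.

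All 4 products had fewer reads and a lower share of the microRNA reads in cdk9-G57S than in wild type, though the main product of each hairpin was higher relative to the most abundant product of the table. The more abundant product of each hairpin had a 1.82-fold lower share (mir-9a) and a 1.51-fold lower share (mir-79) in the mutant. The less abundant product of each had a 3.51-fold lower share (mir-9a) and a 4.93-fold lower share (mir-79). Shares are percentages of all reads over the listed products, 2204104 reads in cdk9-G57S and 2135660 in wild type. Since each genotype had a single library, the genotypes could not be tested against each other, and no difference has a replicate check. The intervals printed are 95% intervals that cover counting error only; PCR copies were not separated from original molecules. RNA came from whole larvae, so fewer cells that make a microRNA and less of it per cell cannot be told apart.

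**Figure D1:**
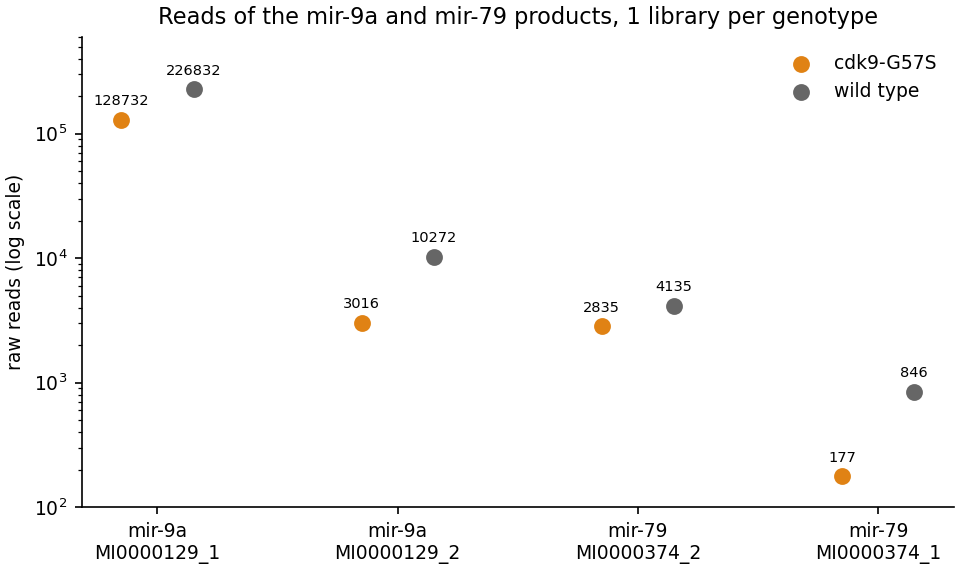
Raw reads on a log scale for each of the 4 products, 1 point per library, with cdk9-G57S left of wild type and the count printed above each point. Every product had fewer reads in cdk9-G57S, from 128732 against 226832 for MI0000129_1 down to 177 against 846 for MI0000374_1.

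The main product of mir-9a, MI0000129_1, had 128732 reads in cdk9-G57S and 226832 in wild type. It was the fourth most abundant product of the mutant library and the second of the wild-type library (rank 4 of 101 in cdk9-G57S and rank 2 in wild type). Its share was 5.84% of cdk9-G57S reads (interval 5.81 to 5.87, exact Clopper-Pearson) against 10.6% of wild-type reads (10.6 to 10.7). The mutant share divided by the wild-type share was 0.550, with an exact conditional-binomial interval of 0.546 to 0.554, or a log2 ratio of -0.86. This lay within the 2-fold limit used here to call a difference. In percentage points of share it was nonetheless among the larger differences of the table. It held 4.78 points less of the mutant library, the second-ranked loss of the 101 products, and that is 13.2% of the 36.3 points lost by all products with a lower share. Points of share weigh abundant products most. The most abundant product alone lost 18.7 points, and by ratio MI0000129_1 ranked 21 from the lowest.

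The second product of mir-9a, MI0000129_2, was rarer by more than an order of magnitude. It had 3016 reads in cdk9-G57S and 10272 in wild type, which placed it at rank 66 in the mutant library and at rank 31 in the wild-type library. Its share was 0.137% of cdk9-G57S reads and 0.481% of wild-type reads. The ratio of shares was 0.284 (0.273 to 0.296), a log2 ratio of -1.81 and the seventh lowest (rank 7) of the 101 products.

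The more abundant product of mir-79, MI0000374_2, had 2835 reads in cdk9-G57S and 4135 in wild type. In reads it was thus close to the minor product of mir-9a in the mutant library, and below it in wild type. Its share was 0.129% of cdk9-G57S reads and 0.194% of wild-type reads, a ratio of 0.664 (0.633 to 0.697) and a log2 ratio of -0.59. Of the 4 products it differed least between the libraries, and its ratio ranked 30 from the lowest.

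The other product of mir-79, MI0000374_1, had 177 reads in cdk9-G57S and 846 in wild type. The mutant count was next to the lowest of that library, at rank 100 of 101, where the lowest was 134 reads. Its share was 0.00803% of cdk9-G57S reads (0.00689 to 0.00930) and 0.0396% of wild-type reads (0.0370 to 0.0424). The ratio of shares was 0.203 (0.171 to 0.239), a log2 ratio of -2.30 and the fourth lowest (rank 4) of the 101. This product also had the fewest reads summed over both libraries of any listed product, 1023, and the next had 1130. The table runs in descending order of summed reads and stops there. The sources used here do not say how products were selected for it, and whether a limit on summed reads bears on this ratio was not tested.

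Among all 101 products, 17 had at least a 2-fold lower share in cdk9-G57S with an interval that excluded 1 (16.8%), and 28 had at least a 2-fold higher share (27.7%). The split moved to 24 lower and 24 higher with median-of-ratios factors, and to 29 lower and 23 higher with totals that omit the most abundant product. Of the 4 members, 2 were at least 2-fold lower, the less abundant product of each hairpin, and 0 were higher. A ratio below 1 was found for all 4 members and for 47 of the 101 products (46.5%). The median log2 ratio was -1.34 over the 4 members and 0.24 over all products. The members share 2 hairpins and are not independent of each other.

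**Figure D2:**
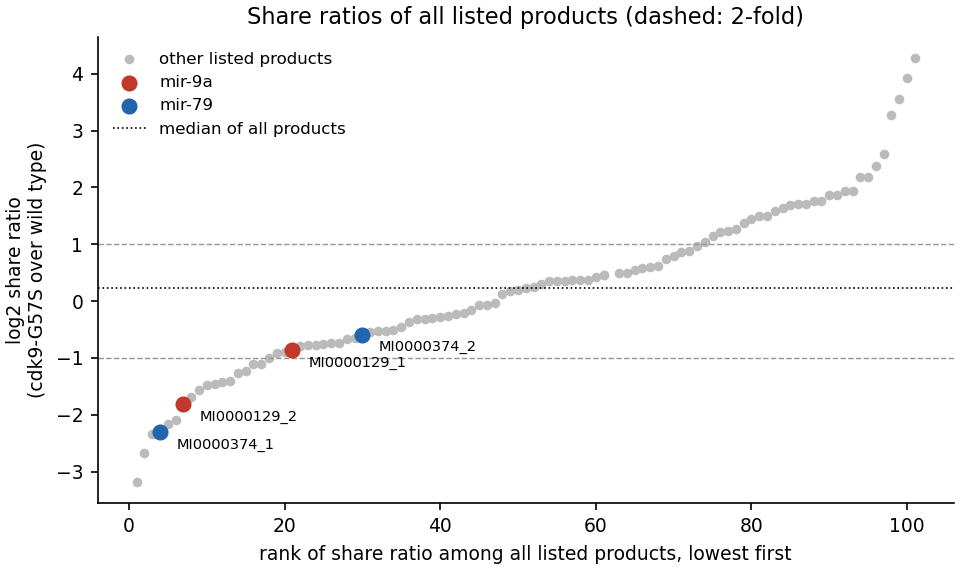
Log2 share ratio (cdk9-G57S over wild type) of each of the 101 products against its rank, lowest first, with the products of mir-9a in red, those of mir-79 in blue, dashed lines at 2-fold and a dotted line at the median of 0.24. The 4 members stand at ranks 4, 7, 21 and 30, all below the median.

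Other products had ratios close to those of the members. The product nearest to MI0000129_1 in log2 ratio was MI0005867_1, with 1543 reads in cdk9-G57S and 2772 in wild type and a ratio of 0.539. Nearest to MI0000129_2 was MI0005812_2, with 2992 reads in cdk9-G57S and 9381 in wild type and a ratio of 0.309. For MI0000374_2 it was MI0005861_1 (ratio 0.686), and for MI0000374_1 it was MI0000136_1 (ratio 0.198). Likeness was taken over 2 libraries only, so it says no more than that the ratios were close. MI0005812_2 was also the product nearest to MI0000129_2 in reads, with counts that differed by at most 8.67% in each library. No product of another hairpin had reads within 2% of a member's in both libraries (0 for each of the 4). Elsewhere in the table, a pair of products from different hairpins had identical counts, 3424 reads in cdk9-G57S and 2406 in wild type. Other products from different hairpins had near-identical counts, within 2% of each other in both libraries. A pair had 40961 and 40964 reads in cdk9-G57S and 67924 and 67925 in wild type. Another had 24679 and 24648 reads in cdk9-G57S and 5289 and 5247 in wild type. A further group had 37341, 37278 and 37551 reads in cdk9-G57S and 28073, 28042 and 28414 in wild type. The library totals and the counts over all products and hairpins may therefore hold some reads repeatedly. Whether related hairpins share reads was not tested, since the sources used here do not say how multiply matching reads were counted.

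Summed over products, mir-9a gave 131748 reads in cdk9-G57S and 237104 in wild type. This was 5.98% of cdk9-G57S reads (5.95 to 6.01) and 11.1% of wild-type reads (11.1 to 11.1), a ratio of 0.538 (0.535 to 0.542). It was the fourth most abundant of the 83 hairpins in the mutant library and the second in wild type (rank 4 in cdk9-G57S and rank 2 in wild type). The mir-79 hairpin gave 3012 reads in cdk9-G57S and 4981 in wild type, or 0.137% of cdk9-G57S reads (0.132 to 0.142) and 0.233% of wild-type reads (0.227 to 0.240). Its ratio was 0.586 (0.560 to 0.613), and its rank was 61 in the mutant library and 44 in wild type. Neither hairpin sum passed the 2-fold limit under scaling by total reads, where 10 of the 83 hairpins were at least 2-fold lower (12.0%) and 24 at least 2-fold higher (28.9%). This call changed with the scaling. With median-of-ratios factors the ratio was 0.457 for mir-9a and 0.497 for mir-79, so both passed the limit, as did 16 of the 83 hairpins in all (19.3%). With TMM factors mir-9a passed it at 0.479 and mir-79 did not at 0.521, and 13 hairpins were at least 2-fold lower (15.7%). With totals that omit the most abundant product the ratios were 0.418 for mir-9a and 0.455 for mir-79, both past the limit, among 20 such hairpins (24.1%). Together the pair of hairpins held 6.11% of cdk9-G57S reads and 11.3% of wild-type reads.

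The hairpin sums of mir-9a and mir-79 lay closer to each other in ratio than the products within either hairpin did. There were 43.7 mir-9a reads for each mir-79 read in cdk9-G57S and 47.6 in wild type. The ratio of these, cdk9-G57S over wild type, was 0.919 (0.878 to 0.962, normal approximation on the log scale), so mir-9a was lower by slightly more than mir-79. The main products differed in the same direction, with 45.4 reads of MI0000129_1 per read of MI0000374_2 in cdk9-G57S and 54.9 in wild type, a ratio of 0.828 (0.789 to 0.869). The less abundant products differed in the opposite direction, with 17.0 reads of MI0000129_2 per read of MI0000374_1 in cdk9-G57S and 12.1 in wild type, a ratio of 1.40 (1.19 to 1.66). On the log2 scale the more abundant products lay 0.27 apart and the less abundant ones 0.49 apart. Products were paired here by abundance, which sets unlike suffixes against each other. By suffix, the log2 ratios (cdk9-G57S over wild type) were -0.86 for MI0000129_1 and -2.30 for MI0000374_1. They were -1.81 for MI0000129_2 and -0.59 for MI0000374_2.

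Within each hairpin, the balance between the products differed between the libraries, and library scaling cancels out of this comparison. For mir-9a there were 42.7 reads of the main product per read of the other in cdk9-G57S and 22.1 in wild type, a 1.93-fold difference (1.85 to 2.01). For mir-79 there were 16.0 reads of the main product per read of the other in cdk9-G57S and 4.89 in wild type, a 3.28-fold difference (2.77 to 3.88). The less abundant product thus made up 2.29% of mir-9a reads in cdk9-G57S (2.21 to 2.37) and 4.33% in wild type (4.25 to 4.41). In mir-79 it made up 5.88% in cdk9-G57S (5.06 to 6.78) and 17.0% in wild type (16.0 to 18.1). The log2 ratios of the products lay 0.95 apart in mir-9a and 1.71 apart in mir-79. The difference in balance was 1.70 times as large in mir-79 (1.42 to 2.02). The same product was the less abundant one in both libraries for each hairpin, but it carries the suffix 2 in mir-9a and 1 in mir-79. The table does not state which arm a suffix denotes, so neither product is called a guide or a passenger strand here.

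**Figure D3:**
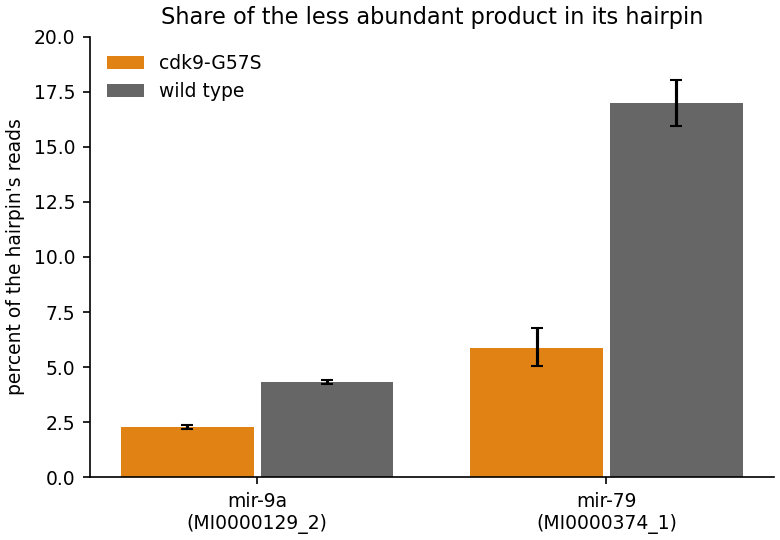
Percent of each hairpin's reads held by its less abundant product in cdk9-G57S (left bar) and wild type (right bar), with exact 95% Clopper-Pearson intervals of counting error. For mir-9a the bars stand at 2.29% in cdk9-G57S and 4.33% in wild type, for mir-79 at 5.88% in cdk9-G57S and 17.0% in wild type, and in neither hairpin do the intervals overlap.

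Set among the 18 hairpins with 2 listed products, mir-9a and mir-79 belonged to the 5 in which both products had a lower share in cdk9-G57S (27.8%). The less abundant product, ranked by wild-type reads, was the lower of the pair in ratio in 2 of these 5, which were mir-9a and mir-79, and the higher in the other 3. The make-up of this set depends on the scaling. With totals that omit the most abundant product, 6 hairpins had both products lower, and in 3 of them the less abundant product was lower by more. The added hairpin was MI0005812, which holds the product nearest to MI0000129_2 in ratio. Across all 18 hairpins the ratio of the less to the more abundant product was lower in cdk9-G57S in 8 (44.4%), by at least 2-fold in 6 (33.3%). By this ranking mir-79 passed 2-fold and mir-9a did not. In 14 of the 18 hairpins the same product was the less abundant one in both libraries. Of those 14, the gap between the products was wider in the mutant in 8, mir-9a and mir-79 among them, and narrower in 6. The size of the separation was not unusual for the table. The median over the 18 hairpins was 1.73 log2 units, in a range of 0.36 to 5.65, and mir-79 and mir-9a ranked 10 and 13 from the widest.

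**Figure D4:**
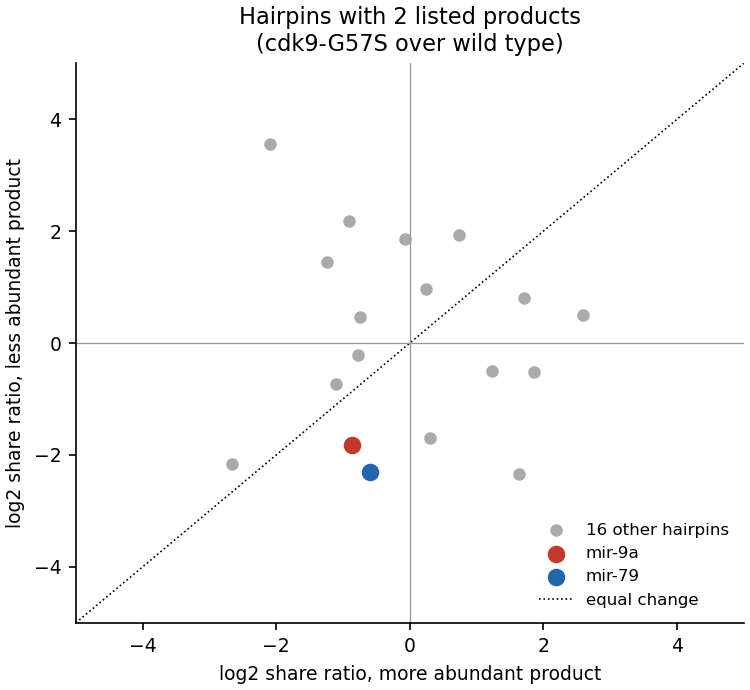
Log2 share ratio (cdk9-G57S over wild type) of the less abundant product against that of the more abundant product, ranked by wild-type reads, for the 18 hairpins with 2 listed products, with a dotted line where both products change equally. The points of mir-9a (red) and mir-79 (blue) lie below the line in the field where both ratios are below 1, and the other 3 points of that field lie above the line under this scaling by total reads. With totals that omit the most abundant product the field holds 6 points, 3 of them below the line.

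The size of the differences between libraries depended on scaling, and for the main product of each hairpin the direction did too when the most abundant product alone was the standard. The authors' deposited normalized values gave ratios of 0.467 for MI0000129_1, 0.241 for MI0000129_2, 0.564 for MI0000374_2 and 0.172 for MI0000374_1. This scale lowers every log2 ratio by the same amount, a shift of -0.24, and places the median product at 0. On it 3 of the 4 members were at least 2-fold lower, MI0000129_1 included, against 24 of the 101 products (23.8%). The most abundant product of the table, which held 16.4% of cdk9-G57S reads and 35.1% of wild-type reads, was used as that standard after the data were seen. Its own share ratio was 0.467, rank 17 of 101 from the lowest, so most products were higher relative to it. Relative to it, MI0000129_1 was higher in the mutant, at 35.6 reads per 100 of its reads in cdk9-G57S and 30.3 in wild type, a ratio of 1.18 (1.17 to 1.19). MI0000374_2 was also higher by this measure, with a ratio of 1.42 (1.36 to 1.49). The less abundant products stayed lower, with ratios of 0.609 (0.585 to 0.635) for MI0000129_2 and 0.434 (0.369 to 0.510) for MI0000374_1.

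**Figure D5:**
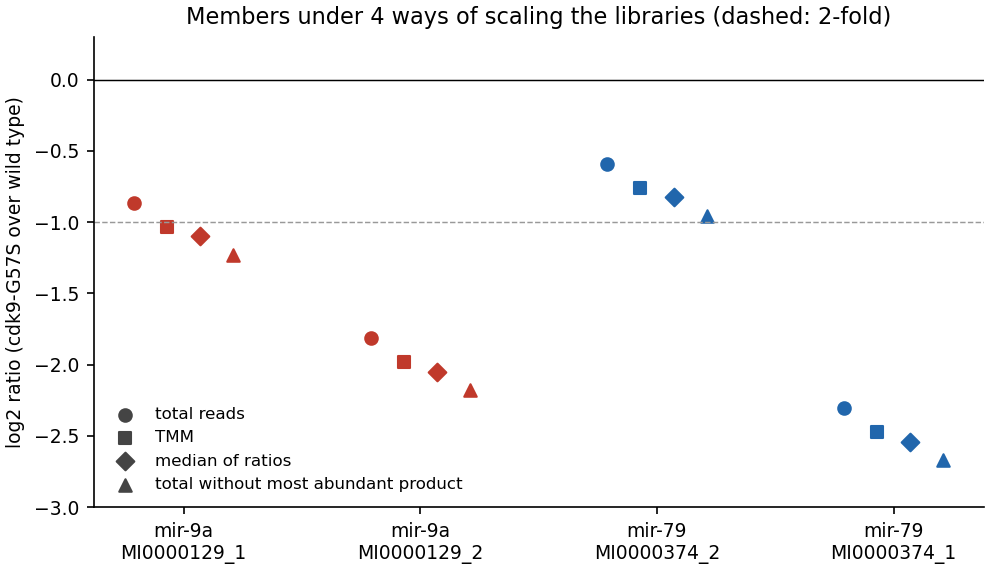
Log2 ratio (cdk9-G57S over wild type) of each of the 4 products under 4 scalings of the libraries, by total reads, TMM, median of ratios and the total without the most abundant product, with a dashed line at a 2-fold lower level. All points lie below 0, MI0000129_1 crosses the dashed line under the other 3 scalings, and MI0000374_2 stays above it under each.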

How the data were processed

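RNA of whole larvae was prepared with Trizol for Illumina sequencing, per the labels' protocols. The submitters' processing notes name Bowtie and the build dm3. The sources used here do not state the trimming, any length filter, the microRNA annotation or how multiply matching reads were counted. Raw read counts of each product in each library were deposited as whole numbers, above footer lines that were left out. A second pair of columns holds a normalized signal, made with DESeq2 per the file headers. Its values equal the counts divided by 1 size factor per library, 1.10 for cdk9-G57S and 0.907 for wild type. These factors were worked out here by dividing the counts by the normalized values.

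Counts were divided by their library total. Members and comparison lists were chosen with earlier results of these data known. The rule for naming took all products of both hairpins, the product nearest to each in share ratio, and products with reads within 2% of a member's. It also listed the other mir-9 family hairpins, the neighbours of mir-79, and mir-4, where their names could be paired with identifiers. None of these could be paired, so they were not compared. A difference was called where the ratio reached 2 or was no higher than 0.5 and its 95% counting interval did not hold 1, given 20 or more summed reads. The interval and the rule were tested on simulated Poisson counts, which follow the counting model behind the interval. Variation between libraries was not part of that test. Alternatives were other scalings, a pseudocount of 5 reads, other limits, and single products in place of hairpin sums. No microRNA sequences were used here, so none is printed. Scaling factors came from edgeR 4.0.16 and DESeq2 1.42.0 in R 4.3.3, and intervals from scipy 1.17.1 in Python 3.11.15 (pandas 2.3.3, numpy 2.4.6); figures were drawn with matplotlib 3.10.9.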

Additional observations from a re-analysis of the deposited data

How the results depend on the processing

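No paired analysis was possible because there was a single library of each genotype. In the order MI0000129_1, MI0000129_2, MI0000374_2 and MI0000374_1, the ratios of cdk9-G57S over wild type were 0.467, 0.241, 0.564 and 0.172 with median-of-ratios factors, 0.489, 0.253, 0.591 and 0.180 with TMM factors, and 0.427, 0.221, 0.516 and 0.157 with totals that omit the most abundant product. Relative to the most abundant product, an alternative chosen after seeing the data, the ratios were 1.18, 0.609, 1.42 and 0.434, so that MI0000129_1 and MI0000374_2 reversed. The share of that product was itself lower in the mutant, at 16.4% of cdk9-G57S reads and 35.1% of wild-type reads. The 3 planned scalings shift every log2 ratio alike, by -0.24, -0.17 and -0.37, so ratios already below 1 could only become lower and their direction was not put to a test. With totals that omit that product, the share of mir-9a was 7.15% in cdk9-G57S and 17.1% in wild type, that of mir-79 was 0.163% in cdk9-G57S and 0.359% in wild type, and that of both was 7.31% in cdk9-G57S and 17.5% in wild type. The more abundant product alone gave 5.84% in cdk9-G57S and 10.6% in wild type for mir-9a, 0.129% in cdk9-G57S and 0.194% in wild type for mir-79, and 5.97% in cdk9-G57S and 10.8% in wild type for both. The comparison of mir-9a with mir-79 was 0.828 from the more abundant products alone and reversed to 1.40 from the less abundant ones alone, which was also chosen after seeing the data. Each of the 11 values recomputed with a pseudocount of 5 reads stayed inside its counting interval. With 177 or more reads per product in each library, so small an addition could hardly do otherwise. Over the table, a 4-fold limit gave 8 higher and 6 lower products and a 1.5-fold limit gave 36 higher and 30 lower, both of which follow from the limit itself. The balance of 28 higher and 17 lower products became 24 and 24 with median-of-ratios factors, 26 and 21 with TMM factors, and turned to 23 higher and 29 lower with totals that omit the most abundant product. The minimum of 20 summed reads excluded no product, since the least summed count was 1023, so dropping it tested nothing. The counting standard error of the log2 comparison of mir-9a with mir-79 was 0.034 from hairpin sums and 0.12 from the less abundant products, where MI0000374_1 had 177 reads in cdk9-G57S. Variation between larvae was not measured.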
